A study of Sus scrofa with 36 samples.

Results

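Pre-mRNA splicing factors and RNA helicases were examined in the mammary gland of ovariectomized and ovary-intact pigs. Members were all genes whose symbol begins with SF3, SRSF, SNRP, HNRNP, PRPF, U2AF, LSM and a digit, DDX or DHX, together with SF1 and SLU7. They were taken from the probe sets that carry 1 gene symbol, and each gene was represented by its probe set with the highest mean over the 36 arrays. This gave 87 genes with 130 probe sets, out of 6360 genes so represented among 20792 probe sets. For 58 members there was 1 probe set, and for 29 there were 2 or more, up to 6 for SRSF6. The means of 78 members were at or above the median of all values, and 3 (DDX25, DDX54 and DDX60) had means under each array's lower quartile, where a value says little about the transcript.

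Introns are removed from a pre-mRNA by the spliceosome, which assembles from small nuclear ribonucleoprotein particles (snRNPs). The U1 particle recognises the 5′ splice site, SF1 and the U2AF factors mark the branch site and 3′ splice site, U2 with its SF3 complexes replaces SF1, and the U4/U6.U5 particle joins before RNA helicases remodel the complex into its active form. Each of the U1, U2, U4 and U5 RNAs carries a ring of Sm proteins, while U6 carries a ring of LSm proteins; SR proteins and hnRNPs bind the transcript itself and steer which splice sites are used. Many DDX and DHX helicases act elsewhere, in mRNA export, translation, ribosome assembly or RNA sensing.

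Each array was hybridised with mammary gland RNA of 1 female Yucatan miniature pig, 36 animals of 5 months in all, in 9 groups of 4. One group had sham surgery, with the ovaries left in place, and saline over 13 days. In the remaining 32 animals the ovaries were removed and prolactin was first lowered over 8 days with the dopamine agonist bromocriptine. In the 5 days that followed, B, BE, BP and BEP were kept on this drug, whereas H, HE, HP and HEP were given haloperidol, a dopamine antagonist by which prolactin is raised. Groups with E in their name also had estrogen, and those with P progesterone. All animals were given bromodeoxyuridine 24 hours before the end. Letters A to D in the sample titles are read as names of the pigs of a group. Whole gland was measured, so fewer cells of a type and less RNA per cell cannot be told apart.

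Values are read as log2 intensities, so a difference of 1 corresponds to a 2-fold change. A gene was called where the limma adjusted p (Benjamini-Hochberg over all 20792 probe sets, two-sided) was under 0.05. Array medians ranged from 7.83 to 7.91. The luminal keratins KRT8 (mean 12.5) and KRT19 (12.3), the epithelial adhesion molecule EPCAM (11.6) and the milk protein gene CSN2 (10.1, range 2.25 to 12.4) were all measured in this gland. Array BP A stood apart, with a mean correlation of 0.889 to the other arrays of its group against 0.921 for the next lowest array (B A). Summed markers of skeletal muscle, scored as the mean of genes centred over all arrays, were high on 5 arrays (B A 6.55, H C 4.68, BP A 3.17, HP C 2.79 and HP A 2.31) and at most 0.90 on the others. Calls that rest on these arrays are given with and without them. Shares of all genes called are given for the fit to all arrays only.

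Of the 87 members, 26 differed among the 9 groups by limma's F test at an adjusted p under 0.05, beside 31.3% of all genes. They included the Sm proteins SNRPD1, SNRPD3, SNRPF, SNRPG, SNRPB and SNRPN, the U1 proteins SNRPA and SNRPC, the helicase DDX39A and the SR protein SRSF12. More members were called for estrogen than for haloperidol, progesterone or ovariectomy with bromocriptine. Over all genes estrogen had the most calls too, 20.1% higher and 18.6% lower. Haloperidol had 5.86% and 2.36%, progesterone 0.126% in either direction, and B against sham 0.896% and 3.3%. B against sham compares 4 with 4 pigs, while the averaged effects compare 16 with 16.

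**Figure D1:**
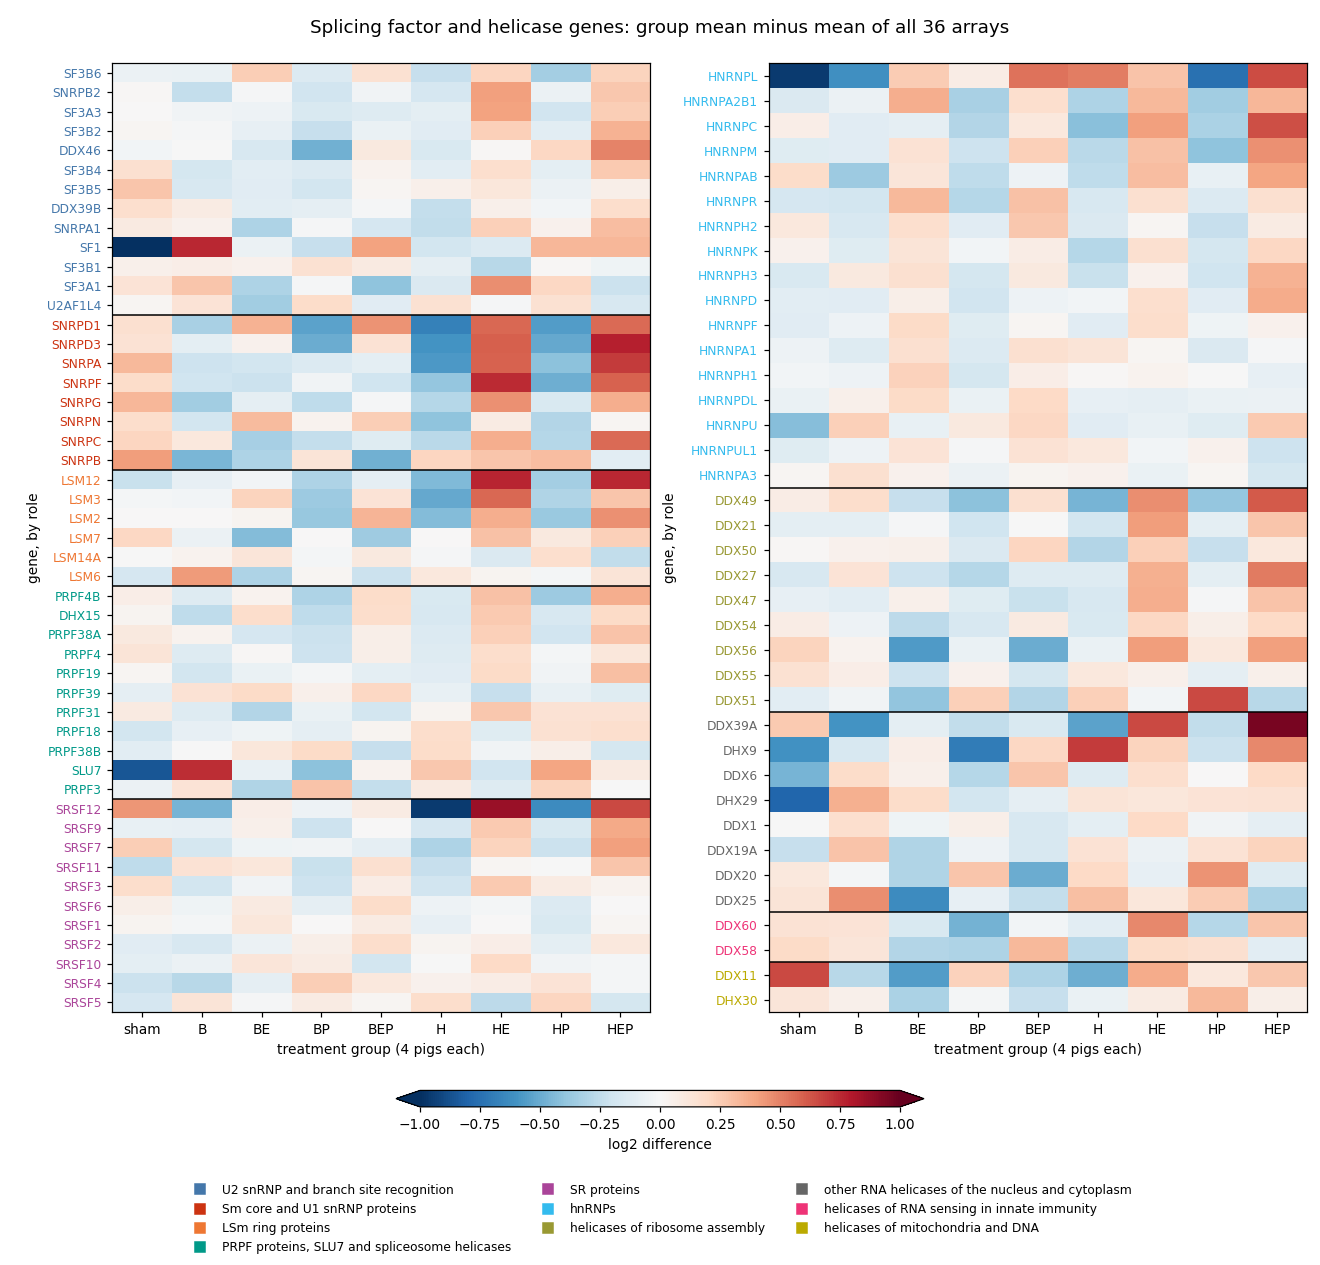
Mean value of each of the 87 members in each of the 9 groups of 4 pigs, as the log2 difference from that member's mean over all 36 arrays (colour scale), with members ordered by role. SNRPD3 and SNRPA stand highest in HE and HEP and lowest in H and HP, and SF1 and SLU7 stand lowest in sham.

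Estrogen, averaged over the 4 backgrounds (BE, BEP, HE and HEP against B, BP, H and HP, 16 pigs each), was followed by higher values of 28 members and lower values of 6. Over all genes 20.1% were called higher and 18.6% lower. The members' median change was 0.21 against 0.03 for all genes, and 61 of the 87 changes were positive. The 28 risers held Sm, U1, LSm and hnRNP members, and the largest changes were about 2-fold. Of the 34 calls, 33 held when any 1 array was left out. SF3A3 lost its call in 25 of the 36 fits that each left out 1 array, and without BP A the count rose to 40 with all 34 kept. SF3A3 was also not called with a second quantile normalization or when sham was left out of the fit. With the mean of a gene's probe sets, LSM12, SNRPG and SRSF9 (limma adjusted p = 0.27) were no longer called.

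The 8 members of the Sm core and U1 snRNP were SNRPA, SNRPB, SNRPC, SNRPD1, SNRPD3, SNRPF, SNRPG and SNRPN. Of these, 6 rose with estrogen and none fell, beside 20.1% and 18.6% of all genes, and the median change was 0.47. SNRPD1, which encodes the Sm protein D1, ranged from 9.92 through a median of 10.67 to 10.98 in pigs given estrogen and from 8.94 through 9.55 to 11.12 in those without. All 16 estrogen-treated pigs lay above the median of the others, and the single untreated pig above the treated range was BP A at 11.12. The change was 1.01 ± 0.16 (SE), or 2.01-fold, with a limma adjusted p of 1.77e-05. SNRPD3, its ring partner D3, ranged from 10.71 through 11.54 to 12.07 with estrogen and from 9.82 through 10.94 to 11.67 without, a change of 0.81 ± 0.14 (adjusted p = 4.18e-05). For this gene 15 of 16 treated pigs lay above the untreated median.

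SNRPG, the Sm protein G, moved within a narrower band. It ranged from 10.88 through 11.13 to 11.68 with estrogen and from 10.50 through 10.80 to 11.32 without, a change of 0.44 ± 0.08 (adjusted p = 0.00011). The second probe set of SNRPG went the other way, as described with the probe sets. SNRPF, the Sm protein F, changed by 0.51 ± 0.16 (adjusted p = 0.0132). SNRPN, whose protein is nearly identical to that of SNRPB, changed by 0.38 ± 0.08 (adjusted p = 0.000745). SNRPB itself changed by −0.20 ± 0.13 and was not called (adjusted p = 0.212). Of the U1-specific proteins, SNRPA changed by 0.59 ± 0.11 (adjusted p = 0.000179) and SNRPC, which touches the 5′ splice site, by 0.29 ± 0.12 (adjusted p = 0.0644).

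**Figure D2:**
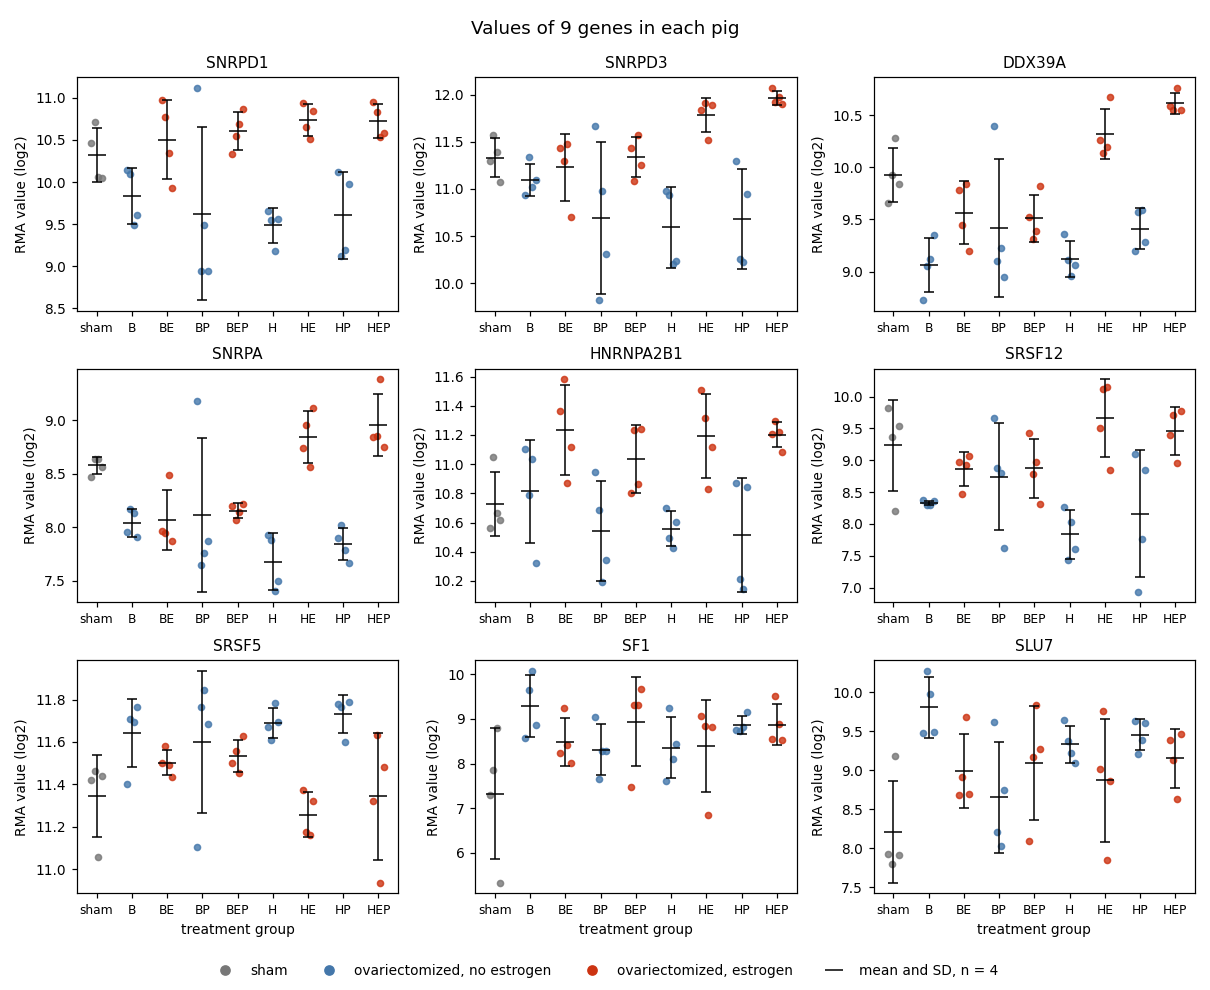
Log2 value in each pig (points), with group mean and SD (bars), over the 9 groups of 4 pigs for 9 members, among them SNRPD1, SNRPA and DDX39A. In SNRPA and DDX39A the HE and HEP pigs lie above every H and HP pig, whereas the BE and BEP pigs overlap those of B and BP.

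Proteins of the LSm family bind uridine-rich 3′ ends, and LSM2 and LSM3 belong both to the U6 ring and to the cytoplasmic decapping ring. Of 6 measured members (LSM2, LSM3, LSM6, LSM7, LSM12 and LSM14A) 3 rose with estrogen and none fell, beside 20.1% and 18.6% of all genes. LSM2 ranged from 10.35 through 10.92 to 11.33 with estrogen and from 9.44 through 10.44 to 11.09 without, a change of 0.59 ± 0.13 (adjusted p = 0.000856). LSM3 changed by 0.60 ± 0.17 (adjusted p = 0.00712). LSM7, another ring protein, changed by −0.08 ± 0.10 (adjusted p = 0.592), so ring partners were not called together. LSM12, an RNA-binding family member outside the U6 ring, changed by 0.64 ± 0.14 (adjusted p = 0.000674), but its second probe set went the other way, as described with the probe sets.

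The U2 snRNP and branch site group held DDX39B, DDX46, SF1, SF3A1, SF3A3, SF3B1, SF3B2, SF3B4, SF3B5, SF3B6, SNRPA1, SNRPB2 and U2AF1L4. Of these 13, 3 rose with estrogen and 1 fell, beside 20.1% and 18.6% of all genes, with a median change of 0.11. SF3B6, the small SF3B protein that contacts the branch site, changed by 0.40 ± 0.09 (adjusted p = 0.00145). SNRPB2, which binds the U2 RNA, changed by 0.32 ± 0.10 (adjusted p = 0.00894) and SF3A3 by 0.24 ± 0.09 (adjusted p = 0.0483). U2AF1L4, a relative of the small U2AF subunit that reads the 3′ splice site, was lower. It ranged from 7.53 through 7.85 to 8.37 with estrogen and from 7.79 through 8.23 to 8.56 without, a change of −0.31 ± 0.10 (adjusted p = 0.0171). SF3B1, the scaffold of the SF3B complex, changed by −0.08 ± 0.10 (adjusted p = 0.546) and SF1, the branch-site binding protein, by −0.03 ± 0.27 (adjusted p = 0.936). DDX39B (UAP56), a helicase of U2 recruitment and mRNA export, changed by 0.10 ± 0.06 (adjusted p = 0.246).

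Among the PRPF proteins, SLU7 and the spliceosome helicases (DHX15, PRPF18, PRPF19, PRPF3, PRPF31, PRPF38A, PRPF38B, PRPF39, PRPF4, PRPF4B and SLU7), 2 of 11 rose with estrogen and 1 fell, beside 20.1% and 18.6% of all genes, with a median of 0.00. PRPF4B, a kinase of spliceosomal proteins, ranged from 9.56 through 10.03 to 10.41 with estrogen and from 9.07 through 9.61 to 9.94 without, and 10 of the 16 treated pigs lay above every untreated one. Its change was 0.46 ± 0.09 (adjusted p = 0.000271). DHX15, the helicase that takes apart the intron-lariat spliceosome after the spliced mRNA has left, changed by 0.41 ± 0.11 (adjusted p = 0.00439). PRPF3, a U4/U6 protein, was lower, from 9.81 through 10.38 to 10.62 with estrogen against 10.34 through 10.66 to 10.86 without. All 16 treated pigs lay below the untreated median, and the change was −0.35 ± 0.08 (adjusted p = 0.00175). PRPF19, the ubiquitin ligase of the activated spliceosome, changed by 0.17 ± 0.10 (adjusted p = 0.173).

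SR proteins bind exonic enhancers through RNA recognition motifs and recruit the splicing machinery through arginine-serine tails. Of 11 measured (SRSF1, SRSF2, SRSF3, SRSF4, SRSF5, SRSF6, SRSF7, SRSF9, SRSF10, SRSF11 and SRSF12), 3 rose with estrogen and 1 fell, beside 20.1% and 18.6% of all genes. SRSF12, a relative of SRSF10, had the largest change of the 11. It ranged from 8.32 through 9.02 to 10.15 with estrogen and from 6.94 through 8.30 to 9.66 without, a change of 0.95 ± 0.20 (adjusted p = 0.000555). SRSF7, which also serves in mRNA export, changed by 0.31 ± 0.09 (adjusted p = 0.00618). SRSF5 was lower. It ranged from 10.93 through 11.47 to 11.63 with estrogen and from 11.10 through 11.70 to 11.84 without, a change of −0.26 ± 0.08 (adjusted p = 0.00993) with all 16 treated pigs below the untreated median. Its change was −0.10 under bromocriptine and −0.41 under haloperidol. The most studied members were not called on their representing probe sets: SRSF1 changed by 0.12 ± 0.07 (adjusted p = 0.179), SRSF2 by 0.12 ± 0.08 (adjusted p = 0.245) and SRSF3 by 0.21 ± 0.10 (adjusted p = 0.0877).

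The hnRNPs coat nascent transcripts and often oppose SR proteins at splice sites. Of 17 measured (HNRNPA1, HNRNPA2B1, HNRNPA3, HNRNPAB, HNRNPC, HNRNPD, HNRNPDL, HNRNPF, HNRNPH1, HNRNPH2, HNRNPH3, HNRNPK, HNRNPL, HNRNPM, HNRNPR, HNRNPU and HNRNPUL1), 8 rose with estrogen and none fell, beside 20.1% and 18.6% of all genes, and 15 changes were positive. HNRNPA2B1 ranged from 10.80 through 11.21 to 11.58 with estrogen and from 10.15 through 10.64 to 11.10 without, and 11 of the 16 treated pigs lay above every untreated one. Its change was 0.56 ± 0.10 (adjusted p = 0.000123), but it rose on its representing probe set alone, as described with the probe sets. HNRNPC, which binds uridine tracts and keeps cryptic exons out of transcripts, ranged from 10.09 through 11.01 to 11.44 with estrogen and from 9.77 through 10.37 to 11.20 without, a change of 0.55 ± 0.11 (adjusted p = 0.000233). HNRNPK, a binder of cytidine-rich RNA, changed by 0.29 ± 0.07 (adjusted p = 0.00306) with all 16 treated pigs above the untreated median.

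Further hnRNPs that rose were HNRNPM at 0.53 ± 0.11, HNRNPAB at 0.43 ± 0.09, HNRNPR at 0.43 ± 0.10, HNRNPH2 at 0.30 ± 0.09 and HNRNPD, which also binds AU-rich elements in decaying mRNAs, at 0.25 ± 0.07. HNRNPA1 changed by 0.15 ± 0.08 (adjusted p = 0.134). HNRNPL had the largest hnRNP change at 0.63 ± 0.36, but its pigs scattered from 5.88 in HE C to 10.74 in BP A and it was not called (adjusted p = 0.176).

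Of the 9 helicases of ribosome assembly (DDX21, DDX27, DDX47, DDX49, DDX50, DDX51, DDX54, DDX55 and DDX56), 2 rose with estrogen and 1 fell, beside 20.1% and 18.6% of all genes. DDX49 changed by 0.52 ± 0.18 (adjusted p = 0.0222), and DDX21, which links RNA polymerase I and II transcription to rRNA processing, by 0.31 ± 0.11 (adjusted p = 0.0237). DDX51, which acts in the processing of large-subunit rRNA, was lower, from 6.81 through 7.60 to 8.18 with estrogen against 7.45 through 8.06 to 9.12 without, a change of −0.52 ± 0.13 (adjusted p = 0.00321) with 15 of 16 treated pigs below the untreated median.

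Of the 8 other nuclear and cytoplasmic helicases (DDX1, DDX19A, DDX20, DDX25, DDX39A, DDX6, DHX29 and DHX9), 1 rose and 2 fell, beside 20.1% and 18.6% of all genes. DDX39A (URH49), the close relative of DDX39B in mRNA export, ranged from 9.20 through 9.99 to 10.76 with estrogen and from 8.72 through 9.16 to 10.40 without. All 16 treated pigs lay above the untreated median, and its change of 0.75 ± 0.11 had the smallest adjusted p of any member (7.89e-06). DDX20 (Gemin3), a part of the complex that loads Sm rings onto snRNAs, was lower, with all 16 treated pigs below the untreated median and a change of −0.48 ± 0.11 (adjusted p = 0.00162). DDX25, a helicase known from the testis, changed by −0.50 ± 0.12 (adjusted p = 0.00232) at the dim end of the arrays. DDX6, a helicase of mRNA storage and decay, changed by 0.23 ± 0.13 (adjusted p = 0.19) and DHX9 by 0.34 ± 0.21 (adjusted p = 0.222). Neither RNA sensor was called: DDX58 (RIG-I) changed by 0.10 ± 0.23 (adjusted p = 0.75) and DDX60 was dim. The last pair of helicases, DDX11 of sister chromatid cohesion and DHX30 of mitochondrial ribosomes, was not called for this average effect.

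Other cells and the cell cycle moved with estrogen too. All 23 measured cell cycle genes rose, with a median change of 2.05, and their summed score ran from 0.08 to 1.73 with estrogen and from −2.01 to 1.55 without, the highest untreated array being BP A. Adipocyte markers were lower for 10 of 13, skeletal muscle markers for 10 of 14, endothelial markers for 9 of 12 and leukocyte markers for 4 of 12, beside 18.6% of all genes. Luminal epithelial markers were higher for 5 of 14 (score −0.54 to 0.78 with estrogen, −1.74 to 0.53 without), myoepithelial markers for 3 of 5, fibroblast markers for 4 of 9 with 1 lower, and melanocyte markers for 1 of 4, beside 20.1% of all genes higher. The part of these shifts in the splicing factor changes was not tested. Without the 5 arrays high in muscle markers, all 34 estrogen calls stayed and DDX50 and SNRPC were added.

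**Figure D3:**
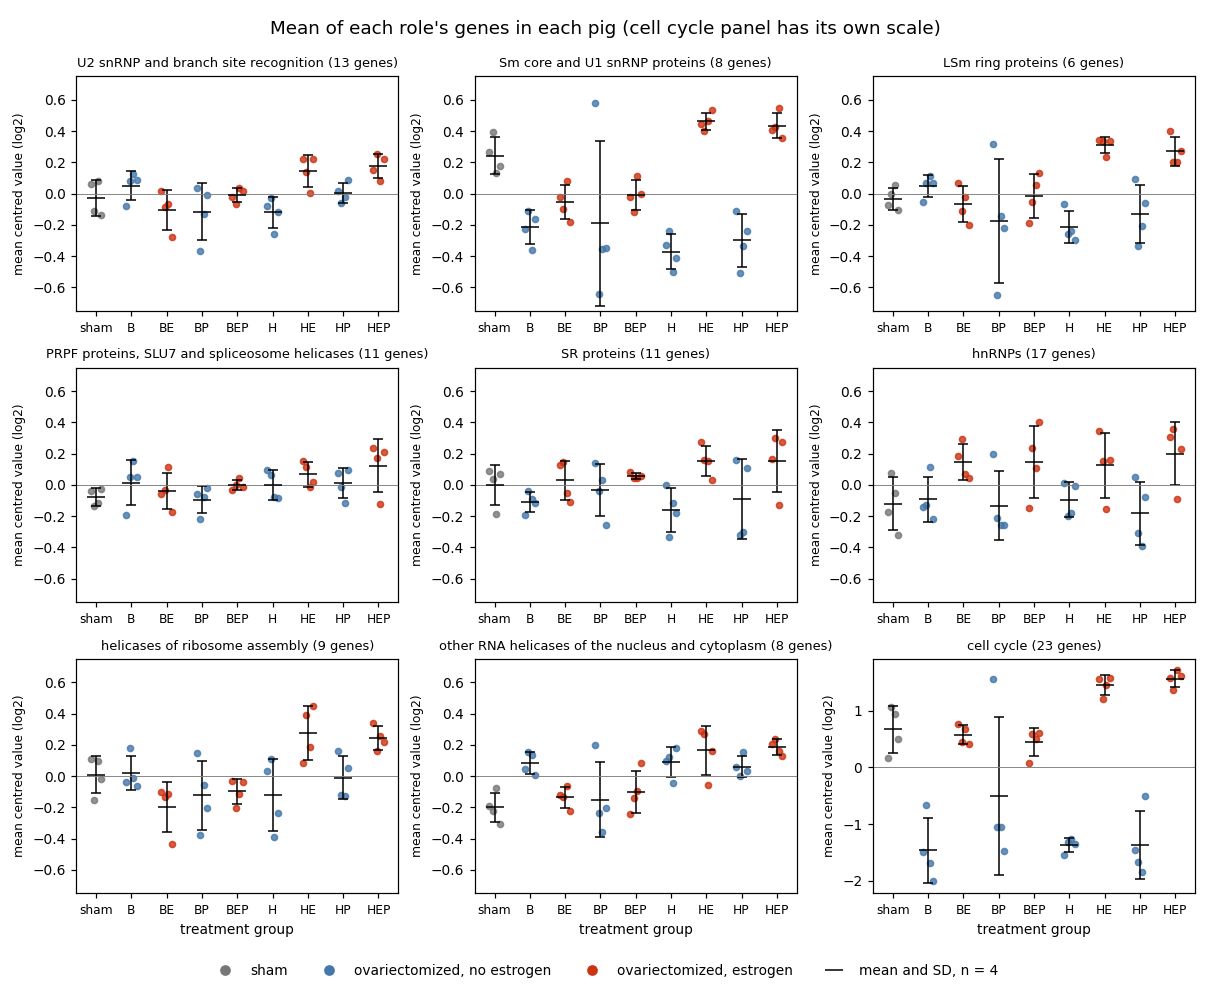
Score of each pig (points, with group mean and SD as bars), the mean of member values centred over the 36 arrays on the log2 scale, for groups of members by role and for cell cycle genes over the 9 groups. The Sm and U1 score averaged 0.46 in HE and 0.43 in HEP against −0.37 in H and −0.30 in HP, and the cell cycle score averaged 0.45 to 1.57 in the 4 groups given estrogen.

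Whether the estrogen change depended on the prolactin-directed drug was tested as the interaction of estrogen with haloperidol, the estrogen change in haloperidol pigs minus that in bromocriptine pigs. In 7 members it was called positive and in none negative, beside 5.3% and 3.52% of all genes. They were SNRPF, SNRPA, LSM12, DDX11, DDX39A, SNRPC and HNRNPC. The median interaction of the 8 Sm and U1 members was 0.62, with 8 of 8 positive, against 0.23 for all members and 0.04 for all genes. Array BP A is included, with high scores for Sm and U1 members (0.58) and cell cycle genes (1.55). Where BP A is high, the bromocriptine change becomes smaller and the interaction larger. Medians and group scores without BP A were not computed. Cell cycle genes had a positive interaction for 23 of 23, with 12 called and a median of 1.40, and their score averaged −1.46, 0.57, −0.51 and 0.45 in B, BE, BP and BEP and −1.36, 1.45, −1.37 and 1.57 in H, HE, HP and HEP. Adipocyte markers had a negative one for 13 of 13, with 7 called (score 0.58, 0.00, 0.17 and 0.02 under bromocriptine, 0.83, −0.94, 0.64 and −1.02 under haloperidol, in the same order). Leukocyte markers were called negative for 3 of 12 (score −0.10, −0.06, 0.08 and 0.11, then 0.49, −0.36, 0.19 and −0.34), endothelial markers negative for 2 of 12 and luminal markers positive for 1 of 14 (score −0.29, −0.15, −0.10 and −0.14, then −0.10, 0.48, −0.11 and 0.35). The part of these in the splicing factor interactions was not tested.

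SNRPA is given for every ovariectomized group. Its values in pigs A to D were 7.96, 8.17, 8.14 and 7.91 in B and 7.97, 7.95, 8.49 and 7.87 in BE. They were 7.93, 7.89, 7.41 and 7.50 in H and 8.74, 8.96, 8.56 and 9.11 in HE. B and BE overlapped, and every HE pig lay above every H pig. With progesterone the values were 9.18, 7.65, 7.76 and 7.87 in BP, 8.20, 8.06, 8.14 and 8.22 in BEP, 7.90, 8.02, 7.79 and 7.67 in HP, and 8.84, 8.85, 9.38 and 8.75 in HEP. Again the haloperidol groups did not overlap, and BP A stood above the whole of BEP. The estrogen change of SNRPA was 0.03 under bromocriptine and 1.14 under haloperidol, an interaction of 1.10 ± 0.22 (adjusted p = 0.0052). BP A counts among the bromocriptine pigs without estrogen, so its high value makes the first change smaller. Over the fits that each left out 1 array, the interaction ran from 0.93 to 1.18 and stayed called (highest limma adjusted p = 0.0109).

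SNRPF had values of 8.32, 8.48, 8.59 and 8.18 in H and 9.41, 9.58, 9.79 and 9.31 in HE. In B they were 8.27, 8.74, 8.66 and 8.63, and in BE 8.56, 8.33, 9.00 and 8.36. The first pair of groups did not overlap and the second did. Its estrogen change was −0.09 under bromocriptine and 1.11 under haloperidol, an interaction of 1.20 ± 0.32 (adjusted p = 0.0219). For DDX39A the values were 9.36, 9.11, 8.96 and 9.06 in H, 10.26, 10.14, 10.20 and 10.67 in HE, 9.20, 9.57, 9.59 and 9.29 in HP, and 10.59, 10.55, 10.76 and 10.55 in HEP. Neither pair overlapped, and the interaction was 0.90 ± 0.22 (adjusted p = 0.0159), from an estrogen change of 0.30 under bromocriptine and 1.20 under haloperidol.

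For LSM12 the estrogen change was 0.13 under bromocriptine and 1.15 under haloperidol (interaction 1.01 ± 0.28, adjusted p = 0.0251). For SNRPC it was −0.16 and 0.74 (interaction 0.90 ± 0.24, adjusted p = 0.0242). For HNRNPC it was 0.21 and 0.89 (interaction 0.68 ± 0.22, adjusted p = 0.0485), and for DDX11, a DNA helicase of cohesion, −0.41 and 0.51 (interaction 0.92 ± 0.29, adjusted p = 0.0454). DDX11 lost its call in 22 of the 36 fits that each left out 1 array and HNRNPC in 27, while the other 5 kept theirs in all 36. With the mean of a gene's probe sets, the interactions of LSM12 (0.39) and HNRNPC (0.34) were not called, and the highest adjusted p over the alternatives was 0.222 for LSM12 and 0.365 for HNRNPC. HNRNPC also lost its call with a second quantile normalization and with arrays centred on their medians. Leaving out BP A ended the calls of DDX11 and HNRNPC, and leaving out the 5 arrays high in muscle markers left SNRPF, SNRPA and DDX39A. Without BP B the count was 12, and without HP A it was 11.

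**Figure D4:**
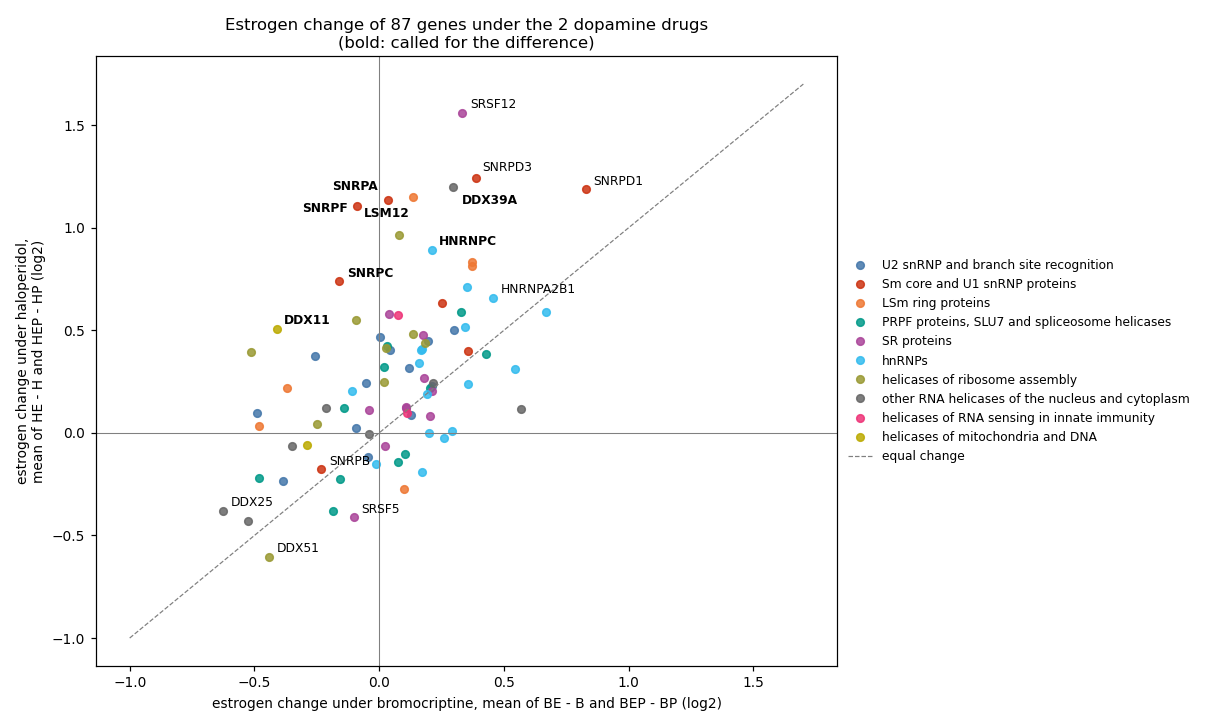
Estrogen change of each of the 87 members (points) under bromocriptine (horizontal axis) and under haloperidol (vertical axis), both as log2 differences of group means averaged over pigs with and without progesterone. Points of SNRPA, SNRPF, DDX39A and LSM12 lie between 1.11 and 1.20 on the vertical axis and at most 0.30 on the horizontal one. The bromocriptine changes include array BP A.

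For SNRPD1 and SNRPD3 the interaction was not called. The estrogen change of SNRPD1 was 0.83 under bromocriptine and 1.19 under haloperidol (interaction 0.36 ± 0.32, adjusted p = 0.519). That of SNRPD3 was 0.39 and 1.24 (interaction 0.85 ± 0.28, adjusted p = 0.053), and that of SRSF12 was 0.33 and 1.56 (interaction 1.23 ± 0.40, adjusted p = 0.0564). In SNRPD1 the H pigs had 9.66, 9.54, 9.18 and 9.56 and the HE pigs 10.94, 10.65, 10.51 and 10.84, without overlap. The B pigs had 10.14, 10.10, 9.48 and 9.61 and the BE pigs 10.98, 10.77, 10.34 and 9.92, with overlap through 1 BE pig. The bromocriptine change of SNRPD1 includes BP A, the highest untreated pig for this gene, which makes that change smaller.

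In the separate backgrounds, 20 members rose and 1 fell in HE against H (13.4% and 9.83% of all genes), and 17 rose and 1 fell in HEP against HP (9.81% and 8.33%). Of the 8 Sm and U1 members, 6 rose in each, with medians of 0.94 and 0.96. SRSF12 had the largest change in HE against H: its values were 8.27, 7.44, 8.03 and 7.61 in H and 9.50, 10.12, 10.15 and 8.85 in HE, without overlap. The change was 1.82 ± 0.40, or 3.54-fold (adjusted p = 0.00206), and in HEP against HP it was 1.30 (adjusted p = 0.0262). SNRPD3 had 10.98, 10.94, 10.21 and 10.24 in H and 11.84, 11.91, 11.52 and 11.89 in HE, a change of 1.20 (adjusted p = 0.00292), and changed by 1.28 in HEP against HP (adjusted p = 0.00213). The member that fell was SRSF5 in HE against H (−0.43, adjusted p = 0.0441) and DDX51 in HEP against HP (−0.94 ± 0.27, adjusted p = 0.0171). The total of 21 in HE against H was 12 without H C and 13 without H D, and the total of 18 in HEP against HP was 7 without HP B and also 7 without HP C.

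Under bromocriptine fewer calls were made. In BE against B no member rose and 1 fell, beside 3.02% and 0.896% of all genes. It was the dim DDX25 (−1.10 ± 0.25, adjusted p = 0.00771), and 2 members were called without B A. In BEP against BP limma called none, with 14 at an unadjusted p under 0.05, beside 0.991% of all genes called in either direction. Without BP A, whose SNRPD1 value of 11.12 stood above 8.94, 9.49 and 8.95 in the other BP pigs, 10 members were called. The share of all genes called without BP A was not taken, so this rise is not particular to the members. The Sm and U1 score of BP A was 0.58 against −0.64 to −0.35 in those 3 pigs, and its cell cycle score was 1.55 against −1.48 to −1.05. The hnRNPs had 17 of 17 positive changes in BEP against BP, and their group score averaged −0.09 in B, 0.15 in BE, −0.13 in BP and 0.15 in BEP, and −0.09, 0.13, −0.18 and 0.20 in H, HE, HP and HEP. The Sm and U1 score averaged −0.21, −0.05, −0.19 and −0.01 in B, BE, BP and BEP.

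Haloperidol against bromocriptine, averaged over the 4 hormone backgrounds, was followed by higher values of 5 members and lower values of none, beside 5.86% and 2.36% of all genes. The members were SNRPB, SNRPG, LSM7, DDX39A and DDX56. SNRPB, the Sm protein B and the 1 measured Sm gene not called higher with estrogen, ranged from 8.14 through 8.55 to 9.31 with haloperidol and from 7.46 through 7.99 to 9.03 with bromocriptine. All 16 haloperidol pigs lay above the bromocriptine median, and the change was 0.46 ± 0.13 (adjusted p = 0.0248). LSM7 ranged from 8.73 through 9.10 to 9.81 and from 8.31 through 8.78 to 9.58, a change of 0.37 ± 0.10 (adjusted p = 0.0248). DDX39A changed by 0.48 ± 0.11 (adjusted p = 0.00764), DDX56, a helicase of the large ribosomal subunit, by 0.49 ± 0.15 (adjusted p = 0.0358) and SNRPG by 0.27 ± 0.08 (adjusted p = 0.0361).

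Among these 5 genes the interaction of haloperidol with estrogen was called for DDX39A alone. DDX39A changed by 0.06 in H against B and −0.01 in HP against BP, neither called, and by 0.75 in HE against BE (adjusted p = 0.0275) and 1.10 ± 0.22 in HEP against BEP (adjusted p = 0.0111). LSM7 changed by 0.06, 0.09, 0.73 (adjusted p = 0.0198) and 0.60 (adjusted p = 0.151) in the same order, with an interaction of 0.59 ± 0.21 (adjusted p = 0.0735). SNRPB changed by 0.67, 0.18, 0.59 and 0.37, with no single comparison called. In HE against BE, 7 members rose and none fell (7.78% and 4.12% of all genes): DDX56 0.98, SNRPF 0.96, DDX11 0.93, SNRPA 0.77, DDX39A 0.75, LSM7 0.73 and SNRPG 0.55. The SNRPF call was lost in 27 of the 36 fits that each left out 1 array, and each of the other 6 in 3 to 6 of them. In HEP against BEP, DDX39A was the 1 member called (1.05% of all genes higher, 0.33% lower).

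Without estrogen, limma called no member in H against B (0.0786% of all genes in either direction, 2 members at an unadjusted p under 0.05) and none in HP against BP (0% of all genes, 2 members unadjusted). Averaged over the 4 hormone backgrounds, milk protein genes, the textbook prolactin response, rose with haloperidol for 8 of 8, with a median change of 3.65. In HP against BP, where 0% of all genes were called, no milk gene was called either. The count of 5 for the average effect was 9 without BP A and 3 without any 1 of BE B, BP B, BEP B, HE C and HE D. Without the 5 arrays high in muscle markers, LSM7 and SNRPB were no longer called and LSM12 and SNRPA were. The count of 7 in HE against BE was 4 without BE A or HE B, 3 without HE C and 1 without BE B, BE D or HE D, and the single call in HEP against BEP was lost without BEP B. Without BP A there were 3 calls in HEP against BEP. DDX56 and SNRPG lost their average-effect calls in 13 and 14 of the 36 fits that each left out 1 array. With the mean of its probe sets, DDX56 was not called for the average effect either (limma adjusted p = 0.0721).

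Progesterone, averaged over its backgrounds, was followed by no limma call among the members (1 at an unadjusted p under 0.05), beside 0.126% of all genes. Its interaction with estrogen called none (2 unadjusted, 0.204% of all genes called), and neither did its interaction with haloperidol (1 unadjusted, 0% of all genes).

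Ovariectomy with bromocriptine was set against intact ovaries in B against sham. There 3 members were higher (SF1, SLU7 and DHX29) and 3 lower (SNRPG, DDX39A and SNRPB), beside 0.896% and 3.3% of all genes. The B pigs differ from the sham pigs in ovaries and in drug, which cannot be told apart. DHX29, a helicase that helps the small ribosomal subunit scan structured leaders, had 7.53, 7.53, 7.63 and 6.99 in sham and 8.73, 8.75, 8.54 and 8.27 in B. The groups did not overlap, and the change was 1.15 ± 0.24, or 2.22-fold (adjusted p = 0.00483). All 8 ovariectomized groups had means from 8.03 to 8.57 against 7.42 ± 0.29 (SD, n = 4) in sham.

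SLU7, which helps choose the 3′ splice site in the second step of splicing, had 7.93, 7.80, 9.18 and 7.92 in sham and 9.47, 10.28, 9.97 and 9.49 in B, also without overlap. Its change was 1.60 ± 0.37, or 3.02-fold (adjusted p = 0.011), while its other probe set changed by 0.48 ± 0.24 (adjusted p = 0.282). SF1 had 7.30, 7.85, 8.80 and 5.32 in sham and 8.57, 9.66, 10.09 and 8.86 in B. The groups overlapped and sham D stood far below the others. The change was 1.98 ± 0.55 (adjusted p = 0.0345), and its other probe set changed by 1.02 ± 0.41 (adjusted p = 0.148).

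All 8 Sm and U1 members were lower in B than in sham by their means, with a median of −0.44, and 2 were called, beside 3.3% of all genes called lower. SNRPG had 11.51, 11.51, 11.18 and 11.40 in sham and 10.63, 10.94, 10.50 and 10.81 in B, without overlap, a change of −0.68 ± 0.16 (adjusted p = 0.0127). SNRPB had 8.97, 8.75, 8.68 and 8.99 in sham and 8.05, 7.75, 7.46 and 8.62 in B, without overlap, a change of −0.88 ± 0.25 (adjusted p = 0.0413). DDX39A had 9.65, 9.93, 10.28 and 9.84 in sham and 8.72, 9.06, 9.12 and 9.35 in B, without overlap, a change of −0.86 ± 0.22 (adjusted p = 0.0232). DDX11 changed by −0.94 ± 0.29 without reaching the threshold (adjusted p = 0.0552). Cell cycle genes were lower in B for 19 of 23, with a median of −2.23. Milk genes were called lower for 2 of 8 (score −0.17 in sham, −3.04 in B) and myoepithelial markers for 2 of 5 (0.00 and −0.41). Adipocyte markers were higher by their means for 13 of 13 (score −0.28 in sham, 0.58 in B) and skeletal muscle markers for 14 of 14 (−0.49 and 1.21), with none called in either list. The muscle mean of B includes B A at 6.55, and every other B pig scored at most 0.90. The part of these marker and cell cycle differences in the splicing factor values was not tested. The count of 6 was 2 without B C, 3 without sham D or B B, 9 without BP A, and 1 (DHX29) when B and sham were fitted alone. Without the 5 arrays high in muscle markers, B A among them, SNRPB was no longer called and LSM6 was. SF1 lost its call without sham A, sham D, B B or B C, SNRPB without sham A, sham B, sham D, B A, B B or B C, DDX39A without sham C, sham D, B A, B B or B C, and SNRPG without B C. With the mean of a gene's probe sets, SF1 and SNRPG were not called.

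Of the 29 members with several probe sets there were 43 pairs of a further probe set with the representing one. Where the difference of a pair was tested for estrogen, 17 of 43 pairs in 12 members changed unequally, beside 26.1% of all such pairs on the array. For haloperidol limma called none of the 43 pairs (lowest adjusted p 0.174, in SRSF6, with 0.861% of all pairs called) and for B against sham none (lowest 0.15, in LSM6, with 1.47% of all pairs called). In 6 pairs both probe sets were called for estrogen in the same direction, in 2 in opposite directions, in 4 the representing one alone, in 12 the further one alone, and in 19 neither. In 7 members a further probe set was called and the representing one was not. These splits were not counted over the 2789 pairs of all genes, so they are not particular to the members. The files do not say which exons or 3′ ends a probe set reads.

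SRSF6, an SR protein, had the most probe sets of any member, 6. Its representing probe set, Ssc.9241.2.A1_a_at, changed by 0.14 ± 0.07 with estrogen (adjusted p = 0.115). Ssc.17252.1.S1_at ranged from 9.54 through 10.16 to 10.61 with estrogen and from 8.64 through 9.26 to 9.97 without, a change of 0.90 ± 0.12 (adjusted p = 8.15e-07), and 12 of 16 treated pigs lay above every untreated one. Ssc.30743.1.S1_at went down, from 7.52 through 9.11 to 10.14 with estrogen against 8.35 through 10.17 to 10.52 without, a change of −0.89 ± 0.18 (adjusted p = 0.000344). All 16 treated pigs lay below the untreated median on that probe set. Ssc.7881.1.A1_at changed by −0.43 ± 0.13 (adjusted p = 0.0129). Measured against the representing probe set, these differences were 0.76 ± 0.11, −1.03 ± 0.18 and −0.57 ± 0.13, all called.

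The probe set Ssc.30743.1.S1_at of SRSF6 fell with estrogen in haloperidol pigs (adjusted p = 0.00209 for HE against H and 0.00152 for HEP against HP) and was not called in BE against B (adjusted p = 0.996). Its group means (± SD, n = 4) were 9.91 ± 0.29 in B and 9.91 ± 0.19 in BE, but 9.92 ± 0.58 in H and 8.29 ± 0.31 in HE, and 10.22 ± 0.40 in HP and 8.48 ± 0.68 in HEP. H and HE did not overlap, with pigs A to D at 10.28, 9.05, 10.10 and 10.24 in H and 8.68, 8.07, 8.40 and 8.00 in HE. The interaction of estrogen with haloperidol was −1.60 ± 0.36 (adjusted p = 0.00984). On the rising probe set, Ssc.17252.1.S1_at, the group means were 9.20 in B, 10.12 in BE, 9.32 in H and 10.08 in HE, and its interaction was not called (adjusted p = 0.909).

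In LSM12 and SNRPG the probe sets were called in opposite directions. LSM12 changed by 0.64 on its representing probe set and by −0.65 ± 0.18 (adjusted p = 0.0053) on Ssc.28144.1.A1_at, a difference of −1.29 ± 0.24. SNRPG changed by 0.44 on its representing probe set and by −0.59 ± 0.16 (adjusted p = 0.0057) on Ssc.17917.1.A1_at, a difference of −1.03 ± 0.19. When the probe sets of a gene were averaged, both genes came out near 0 for estrogen. HNRNPA2B1 rose on its representing probe set alone, with −0.13 ± 0.09 and 0.09 ± 0.09 on the other two.

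SRSF1, the founding SR protein, was not called on its representing probe set but rose by 1.03 ± 0.28 (adjusted p = 0.0056) on Ssc.7576.3.S1_at and by 0.36 ± 0.09 (adjusted p = 0.002) on Ssc.7576.1.S1_at. DDX39A rose on both of its probe sets, by 0.75 and by 1.23 ± 0.20, the difference of 0.48 ± 0.16 being called (adjusted p = 0.0212). PRPF38B, a partner of the tri-snRNP, changed by −0.19 on its representing probe set, by −0.61 ± 0.20 on another and by 0.65 ± 0.14 on one that was dim, with a mean of 4.71. SRSF9, SRSF10, SRSF11, LSM6 and HNRNPUL1 held the remaining unequal pairs, with differences between −0.45 and 0.49. By contrast HNRNPR (0.43 and 0.82), HNRNPH2 (0.30 and 0.38), HNRNPD (0.25 and 0.33), HNRNPK (0.29 and 0.22) and SNRPN (0.38 and 0.45) rose on a pair of probe sets each whose difference was not called.

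**Figure D5:**
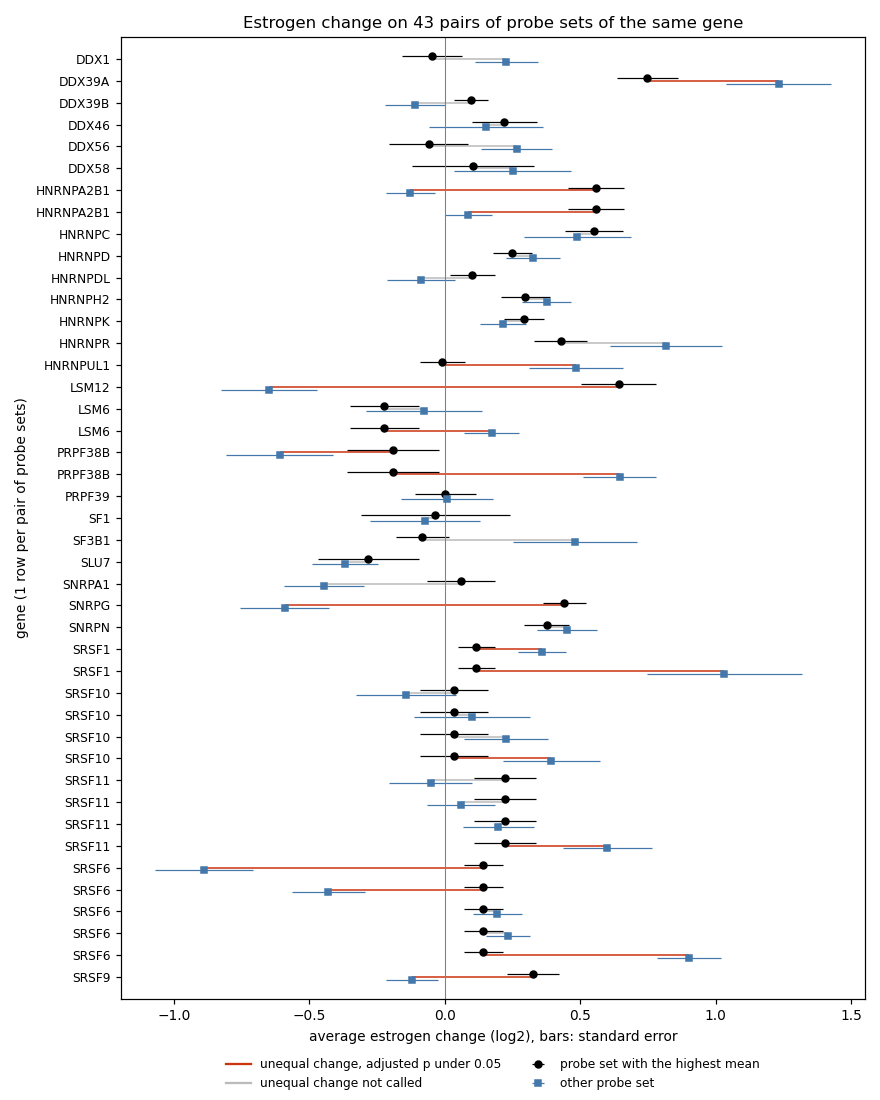
Average estrogen change with its standard error (horizontal axis, log2, 16 pigs with against 16 without estrogen) of the representing probe set (black circles) and of a further one (blue squares), with 1 row for each of the 43 pairs in 29 members and a red line where the change was called unequal. SRSF6 has squares near 0.90 and −0.89 around a circle at 0.14, and in LSM12 and SNRPG the square and the circle lie on opposite sides of 0.

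Outside the name families of the members, 66 of 103 listed spliceosome and splicing regulator genes were measured. With estrogen 18 rose and 7 fell, beside 20.1% and 18.6% of all genes, with a median change of 0.13. The largest rises were in CWC27, a cyclophilin-type spliceosome protein, at 0.86 ± 0.20, SYNCRIP, an hnRNP by another name, at 0.71 ± 0.12, PPIL1, a peptidyl-prolyl isomerase of the active spliceosome, at 0.69 ± 0.11, and RALY, a relative of HNRNPC, at 0.59 ± 0.15. The largest falls were in CELF2, a splicing regulator, at −0.54 ± 0.15, CLK3, a kinase of SR proteins, at −0.46 ± 0.10, XAB2, shared by splicing and transcription-coupled repair, at −0.44 ± 0.13, and GEMIN5, which delivers snRNAs for Sm loading, at −0.43 ± 0.09. Of the same Sm-loading machinery, SMN1 was higher at 0.33 ± 0.09 (adjusted p = 0.00534) and GEMIN2 changed by 0.13 ± 0.10 (adjusted p = 0.323), so its measured genes were called in both directions. Haloperidol was followed by higher EIF4A3, a helicase of the exon junction complex (0.45 ± 0.11, adjusted p = 0.01) and SNRNP200, the U5 helicase that unwinds U4 from U6 (0.28 ± 0.08, adjusted p = 0.0367). For the interaction of estrogen with haloperidol, BUD31, a core spliceosome protein (0.92, adjusted p = 0.0322) and PPIH, a cyclophilin of the U4/U6.U5 particle (0.91, adjusted p = 0.022) were positive and CELF2 (−0.97 ± 0.30, adjusted p = 0.0412) negative. Ribosome assembly factors, listed for comparison as another RNA-protein assembly pathway, rose with estrogen for 11 of 27 and fell for 1, beside the same shares of all genes (20.1% and 18.6%). Their interaction with haloperidol was positive for 27 of 27, with 7 called, beside 5.3% of all genes called positive.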

How the data were processed

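RNA of 36 mammary glands was measured on an Affymetrix porcine array, and the labels name separate pigs. Per the submitters' processing notes the authors' deposited values come from RMA, and they were read as log2, since they run from 1.55 to 13.74 and no base is stated. The software version is not given in the sources used here. RMA in its usual form summarises probes after quantile normalization, and values of different probe sets are not compared as levels. Symbols came from the platform annotation: 9149 probe sets had 1 symbol, 178 several and 11465 none, and 3 probe sets with several symbols that include a member were left out. All 87 members matched the RefSeq gene table by gene identifier.

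One linear model with 9 group means was fitted to all 20792 probe sets (limma 3.58.1 in R 4.3.3, 27 residual and 4.16 prior degrees of freedom), p-values were adjusted per comparison, and figures were drawn with matplotlib 3.10.9. For genes with several probe sets, the difference of each further one from the representing one was fitted likewise over 2789 pairs in 1952 genes. The code was tested on simulated data. The number of arrays limits the precision. The letters of the pigs were checked for pairing: in 0 of 36 pairs of groups did every same-letter pair of arrays deviate together (correlation over 0.1). A weak shared effect of a letter would not meet this rule. Deviations correlated at 0.037 on average for the same letter and at −0.012 for other letters. The letters were not used as pairs in the main fit, and letters as a block were an alternative.

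Genes were named by size of change (up to 8 called members per direction in the 3 broad comparisons, 3 in the others) together with 31 textbook members, of which 22 were measured. DDX49, HNRNPAB, HNRNPD, HNRNPH2, HNRNPL, HNRNPM, HNRNPR, PRPF4B, SF3A3, SF3B6, SNRPB2, SNRPC and SNRPN were named after their values were seen. Members, lists and tests were chosen with earlier results of these data known. Alternatives were other normalizations, variance models, array weights, probe set filters, letters as a block and left-out arrays.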

Additional observations from a re-analysis of the deposited data

Results flagged for a closer look

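Single arrays stood apart from the other 3 of their group in 12 of the 171 groups of values examined for the genes shown by pig, where chance gives about 1 in 20. SNRPA was high in BE C (8.49), BP A (9.18) and HEP C (9.38). SRSF5 was low in sham C (11.06) and in HP C (11.60). LSM12 was high in sham C (9.17) and in H B (8.63), and LSM2 was high in B C (10.84). SF1 was low in BEP A (7.47) and in HE C (6.85), SLU7 was high in sham C (9.18), and DHX29 was low in sham D (6.99).

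The estrogen change differed between the haloperidol and the bromocriptine pigs by the interaction test in 7 members. The difference on the log2 scale was 1.20 for SNRPF, 1.10 for SNRPA, 1.01 for LSM12, 0.92 for DDX11, 0.90 for DDX39A, 0.90 for SNRPC and 0.68 for HNRNPC.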

How the results depend on the processing

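Counts below are members called, or unequal probe set pairs where said. The share of all genes called was taken for the main fit only. These counts therefore do not tell whether members gained or lost more calls than other genes. Leaving out each array in turn gave 33 to 40 for estrogen, 3 to 9 for haloperidol, 2 to 9 for B against sham, 5 to 12 for the interaction of estrogen with haloperidol, 1 to 2 for BE against B, 0 to 10 for BEP against BP, 12 to 25 for HE against H, 7 to 23 for HEP against HP, 1 to 10 for HE against BE, 0 to 3 for HEP against BEP and 20 to 35 for the F test, with unequal pairs at 12 to 20 for estrogen, 0 to 2 for haloperidol and 0 to 3 for B against sham. With array weights the counts were 11 for B against sham, 10 for haloperidol, 13 for the interaction, 7 for BE against B, 9 for BEP against BP, 28 for HEP against HP, 12 for HE against BE, 13 for HEP against BEP and 51 for the F test, and unequal pairs were 4 for B against sham and 1 for haloperidol. Without dim probe sets they were 0 for BE against B, 2 for HEP against BEP and 10 unequal pairs for estrogen, where 24 member pairs were left. With 1 probe set per gene in the fit they were 11 for the interaction and 2 for HEP against BEP. B and sham fitted alone gave 1. Without BP A, B A and B B they were 2 for B against sham, 3 for the interaction and 1 unequal pair for haloperidol. Without the 5 arrays high in muscle markers, an alternative added after seeing the data, the interaction gave 3. With the mean of a gene's probe sets the estrogen change was −0.0041 for LSM12 and −0.0747 for SNRPG, each averaging probe sets of opposite sign. The cause of the other shifts was not tested.

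The letters as a replicate block changed the call of SF3A3 for estrogen, and no other call of a gene named in the text. Over single genes and alternatives, 5393 values kept direction and side of the threshold, 61 were no longer called, 28 became called and 2 reversed. Dim members (DDX25, DDX54 and DDX60) and groups of 4 pigs limit what small changes can be seen.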
